A study of Rattus norvegicus with 17 samples.

Results

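The comparison described here set spinal cord neurons that regenerated an axon against spinal cord neurons of the same rat that did not. It used 14 of the 17 arrays of the series, chosen by their titles and paired by the animal name in them, which gave 7 pairs from 5 animals with the prefix MM (MM11, MM13, MM14, MM16 and MM17) and from MOON265 and MOON266. The other 3 arrays, of traced neurons without axotomy from other rats, entered no comparison, but the filter on dim probe sets took the mean over all 17 arrays. Every sample was a pool of 1000 neurons that carried a retrograde label, cut out by laser capture from 10 µm sections of unfixed, frozen cord and hybridised to 1 Affymetrix rat array after 3 rounds of RNA amplification. Both groups were axotomised spinal neurons of rats, without a stated genotype or treatment agent. The strain, age and sex of the rats, the lesion, the substrate the axons grew on, the tracer, the time after injury and the meaning of the prefixes MM and MOON were not given in the sources used here. Since each sample was a pool, fewer neurons of a kind and less RNA per neuron cannot be told apart in any value below. With the samples paired by animal, the p-values measure the spread of the within-animal differences among these 7 animals.

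Most axons cut within the adult central nervous system do not regrow, and the neurons of 1 region differ in whether they extend a new axon. Injured neurons that regrow, best known from peripheral nerve, switch on a set of genes that includes transcription factors such as Atf3, Jun and Stat3 and growth cone proteins such as Gap43. The spinal cord holds motor neurons, whose axons leave through the ventral roots and which release acetylcholine, and interneurons and projection neurons, most of which release glutamate, GABA or glycine. Calca and Calcb encode the 2 forms of the peptide CGRP, and Uts2 encodes the peptide urotensin 2. Both peptides are made in motor neurons, and CGRP in sensory neurons of the dorsal root ganglia as well.

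The 5 measures of array quality did not pass a two-sided exact sign-flip test over the 7 pairs, the smallest p being 0.156 (adjusted p = 0.66 over 5 measures), for the ratio of 3 prime to 5 prime signal of beta-actin. With 7 pairs, no measure alone could have passed this test after adjustment over 5, so the result does not show equal quality. The mean log2 ratio of 3 prime to 5 prime signal over the control transcripts was higher in the regenerating sample of 6 of 7 animals, by 0.27 to 0.85, and lower in MOON266, by -0.47. This mean ratio was not among the 5 measures tested. The non-regenerating array of MM17 stood apart, with a median correlation with the other arrays of 0.834 against 0.917 to 0.944 for the other non-regenerating arrays. Rbfox3, Snap25 and Nefl, which mark neurons, were present on all 14 arrays, with lowest signals of 79.6, 2850 and 1629. So were Gfap of astrocytes and Mbp of oligodendrocytes, with lowest signals of 2107 and 2802, so glial transcripts were measured in both groups.

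Differences are given as log2(signal + 16) in regenerating minus non-regenerating neurons, averaged over the 7 animals, with the standard error (SE) from limma. On this scale the change of a gene with a signal near or below 16 is understated. Of 18625 probe sets tested, 3 (0.0161%) passed a Benjamini-Hochberg adjusted p of 0.05 in limma with the animal as a block: those of Calca and Uts2, which rose in regenerating neurons, and probe set 1385146_at, which has no gene name here and fell. With an unadjusted limma p under 0.05 there were 794 higher and 524 lower probe sets. In limma, 0 passed without MM11, without MM13, without MM14 or without MM17, with 1372, 1023, 774 and 1172 at an unadjusted p under 0.05. Without MOON266, 1 passed, and without MOON265, 2 did. Centring each array on its median left 1 higher and 1 lower. In limma, 0 passed with quantile normalization, an offset of 1, no filter or the 3 prime to 5 prime ratio as a covariate, with 1544, 1246, 1923 and 543 at an unadjusted p under 0.05. Over all alternatives, Calca passed in 9 of 21 and Uts2 in 4 of 20. Every other gene named below did not pass, with adjusted p between 0.24 and 0.99.

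Calca gave signals of 208 to 1644 in regenerating neurons, with a median of 801, and of 49.0 to 307 in non-regenerating neurons, with a median of 163. The ranges overlapped, because regenerating MM16 (208) and MOON266 (223) lay below non-regenerating MM14 (307), but in every animal the regenerating sample was the higher. The rise within animals was 1.69 in MM11, 2.19 in MM13, 2.15 in MM14, 1.08 in MM16, 2.86 in MM17, 4.64 in MOON265 and 0.90 in MOON266. The mean was 2.22 (SE 0.32, n = 7 pairs, adjusted p = 0.031 by limma), a 4.64-fold rise. MOON265, the animal with the widest gap, had the lowest non-regenerating signal, 49.0. The 2 MOON animals gave the highest and the lowest difference.

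Uts2 gave signals of 42.3 to 243 in regenerating neurons, with a median of 114, and of 7.80 to 163 in non-regenerating neurons, with a median of 35.5. Its level varied widely between animals: MM14 had the highest signal in both groups and MOON265 the lowest in both. Within animals the rise was 1.70 in MM11, 0.94 in MM13, 0.54 in MM14, 1.12 in MM16, 1.25 in MM17, 1.29 in MOON265 and 0.95 in MOON266. The mean was 1.11 (SE 0.17, n = 7 pairs, adjusted p = 0.042 by limma). The rise of Uts2 was smallest in MM14, where that of Calcb, described below, was largest. The non-regenerating signals of MOON265, MOON266 and MM11, at 7.80, 20.7 and 23.9, lay near or below the added 16, and the difference was 1.48 with an offset of 1 and 0.68 with an offset of 64. Uts2 was placed in the motor neuron list below with its result known and is counted there.

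Probe set 1385146_at gave signals of 25.0 to 480 in regenerating neurons, with a median of 51.6, and of 96.0 to 1055 in non-regenerating neurons, with a median of 171. The regenerating sample was the lower in every animal, although MM17, MOON265 and MOON266 had signals of at least 226 in both groups and the other 4 animals had signals of at most 171 in both. It fell by 1.37 (SE 0.18, n = 7 pairs, adjusted p = 0.028 by limma), with a range over animals of -2.19 in MM16 to -0.75 in MOON265. The same sign in every animal was not particular to these 3: 209 probe sets (1.12%) were higher and 180 (0.966%) lower in the regenerating sample of all 7 animals.

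**Figure D1:**
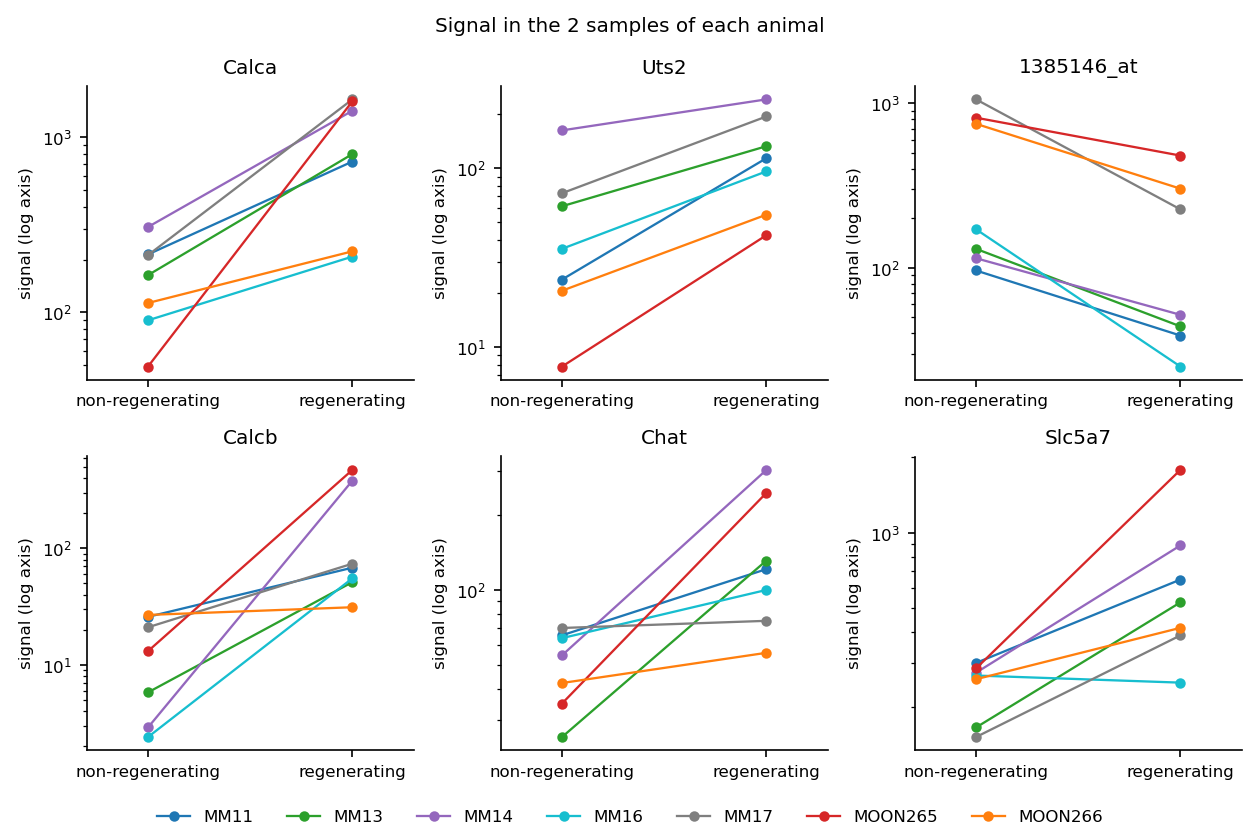
Signal (log axis) in the non-regenerating and regenerating sample of each of the 7 animals, 1 line per animal, for the 3 probe sets that passed the test and for Calcb, Chat and Slc5a7, which did not. Calca and Uts2 rise and 1385146_at falls along every line, while Slc5a7 runs slightly down in MM16.

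The sequences before the start sites of the 2 named genes are shown because they are the 2 genes with a name that passed the test. They are the 250 bases upstream of the start of each gene in RefSeq, build GRCr8, written 5′ to 3′ on the strand of the gene: Calca at chr1:178317530-178317779 on the minus strand and Uts2 at chr5:166733421-166733670 on the plus strand. Capitals mark a half-site of the cyclic AMP response element, the motif TGACG searched on both strands with the letters CGTCA for the other strand.
Calca: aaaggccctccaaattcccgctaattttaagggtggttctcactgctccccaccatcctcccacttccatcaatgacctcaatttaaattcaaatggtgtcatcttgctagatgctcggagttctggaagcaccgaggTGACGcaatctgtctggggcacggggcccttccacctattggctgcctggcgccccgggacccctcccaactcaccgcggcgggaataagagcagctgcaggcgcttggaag
Uts2: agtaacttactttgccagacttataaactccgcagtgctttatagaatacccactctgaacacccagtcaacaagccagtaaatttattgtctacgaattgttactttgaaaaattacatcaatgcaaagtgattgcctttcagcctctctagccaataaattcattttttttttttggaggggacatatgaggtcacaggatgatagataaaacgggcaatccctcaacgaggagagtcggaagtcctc
The Calca sequence held 1 half-site, which began 112 bases before the start, and the Uts2 sequence held none in this window. Of the 27457 upstream sequences of the same length in the RefSeq table, 19% held at least 1. Of the motor neuron genes described next, 8 of 9 looked up, Calca and Uts2 included, had a sequence there, and Chat held 1 half-site and Slc5a7 held 2. A match is a description of the letters and no measurement of binding.

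Part of the genes of motor neurons and of acetylcholine handling were higher in regenerating neurons. Of 28 genes in the list, 21 were measured, 14 were higher and 7 lower. Calca and Uts2 passed the adjusted test, and 9 of 21 were higher with an unadjusted p under 0.05 and 0 lower. Over all 10431 named genes, the shares were 4.93% higher and 2.5% lower. The median difference was 0.24, against 0.01 over all genes, and it lay above 0 in every animal, from 0.17 in MM17 to 0.62 in MM14. Without Uts2, 13 of 20 genes were higher, 8 of them at an unadjusted p under 0.05, with a median of 0.17. The list was drawn up with earlier results of these data known, so its count is a description of these samples.

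Among genes for acetylcholine, Slc5a7, the choline transporter, gave signals of 251 to 1784 in regenerating neurons (median 526) and of 152 to 301 in non-regenerating neurons (median 268). Its difference was 1.24 (SE 0.22, n = 7 pairs, adjusted p = 0.24 by limma), above 0 in 6 of 7 animals and -0.09 in MM16. Chat, the enzyme that makes acetylcholine, gave 55.8 to 303 (median 121) against 25.6 to 70.2 (median 54.5). Only regenerating MOON266 (55.8) lay within the range of the non-regenerating samples, and the difference was 1.15 (SE 0.26, adjusted p = 0.52 by limma), from 0.08 in MM17 to 2.36 in MOON265. Slc18a3, the vesicular acetylcholine transporter, whose coding exon lies within the Chat gene, differed by 0.77 (SE 0.24), above 0 in 6 of 7 animals, the exception being MOON266 at -0.20. Slc10a4, a vesicle protein of cholinergic and monoamine neurons, differed by 1.34 (SE 0.31), in all 7 animals, from 0.18 in MM17 to 3.31 in MM14.

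Calcb, the second CGRP gene, gave 31.2 to 471 in regenerating neurons (median 68.2) and 2.40 to 26.8 in non-regenerating neurons (median 13.1). The 2 groups did not overlap, which was the case for 2 probe sets of all tested (0.0107%) in this direction and for 2 (0.0107%) in the other. The difference of Calcb was 2.07 (SE 0.40, adjusted p = 0.37 by limma), and its non-regenerating signals lay near or below the added 16. It was 4.39 in MM14 and 4.06 in MOON265 and 0.14 in MOON266. The other probe set above all non-regenerating samples was that of Rab3b, a vesicle GTPase, with 33.9 to 99.2 against 17.1 to 33.4 and a difference of 0.71 (SE 0.20).

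Of other markers of motor neurons, Chodl and Prph had comparable values. Chodl, a membrane protein enriched in fast motor neurons, gave 392 to 1656 (median 690) against 215 to 628 (median 254). Its difference was 1.32 (SE 0.26, adjusted p = 0.37 by limma), above 0 in 6 of 7 animals. Prph, the intermediate filament peripherin of neurons with peripheral axons, gave 151 to 914 (median 245) against 94.5 to 292 (median 144) and differed by 0.90 (SE 0.21), in all 7 animals, with 2.38 in MM14 and at most 1.14 in the others.

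The rest of the list lay between -0.33 and 0.31. The transcription factor Isl1 differed by -0.02 (SE 0.21), the receptor Ret by 0.03 (SE 0.15) and its coreceptor Gfra1 by 0.24 (SE 0.14). Esrrg and Esrrb, nuclear receptors that mark gamma or slow motor neurons, differed by -0.14 and -0.09. The heavy neurofilament Nefh differed by -0.32, Cldn1 by -0.33, Anxa4 by 0.31 and Lix1 by 0.10. The vesicle proteins Sv2a, Sv2b and Sv2c, whose use differs between motor neuron types, differed by 0.08, -0.17 and -0.20. Each of these 12 genes had an unadjusted p above 0.05 in limma. Ache, Mnx1, Lhx3, Lhx4, Mmp9, Hoxc9 and Vipr2 were not among the tested genes.

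The size of the motor neuron difference varied between animals. Over Calca, Calcb, Chat, Slc5a7, Slc18a3, Slc10a4, Chodl and Prph, the median difference was 2.71 in MOON265, 2.29 in MM14, 1.31 in MM13, 0.91 in MM17, 0.89 in MM16, 0.71 in MM11 and 0.54 in MOON266. MOON265 was among the 2 animals with the largest difference for 8 of these 8 genes and MM14 for 7 of 8. Uts2, left out of the 8, had another order: it was highest in MM11 (1.70), then MOON265 (1.29), and lowest in MM14 (0.54). MM17, the animal with the second largest difference of Calca, was the lowest animal for Chat (0.08) and Slc10a4 (0.18). The 8 genes were chosen with their values known, and the list members with an unadjusted p above 0.05 were left out. The order of the animals is thus a description of these 8 genes and not of the list.

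**Figure D2:**
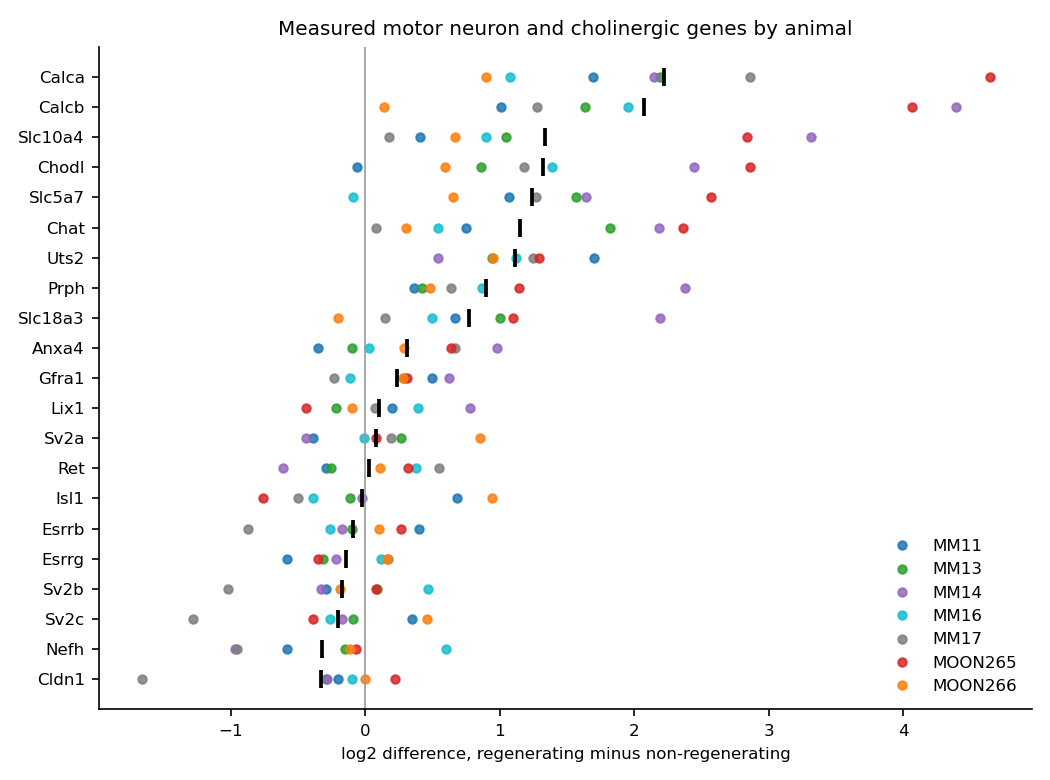
Log2 difference (regenerating minus non-regenerating) of the 21 measured motor neuron and cholinergic genes, 1 point per animal and a black bar for the mean of 7 animals. The upper 9 genes lie mostly to the right of 0, and the lower 12 lie around 0.

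CGRP and peripherin are also made by sensory neurons of the dorsal root ganglia. Isl1, Prph, Calca and Calcb stood both in the sensory ganglion and in the motor neuron list. Of its 12 measured genes, 7 were higher and 5 lower, with a median of 0.01. At an unadjusted p under 0.05, 4 were higher, Calca, Calcb, Prph and Sncg, and 2 lower, the glutamate receptor Grik1 at -0.39 (SE 0.17) and Th, tyrosine hydroxylase, at -0.41 (SE 0.19). Its summed signal was 879 to 3991 in regenerating and 569 to 1584 in non-regenerating neurons and was higher in the regenerating sample of 7 of 7 animals, with Calca in the sum. Of its genes outside the motor neuron list, Sncg, gamma-synuclein, differed by 0.68 (SE 0.18), in all 7 animals, and Scn10a, P2rx3, Trpv1 and Pou4f1, which define sensory neurons, by 0.03, 0.09, -0.21 and -0.14. Mrgprd, Avil and Prdm12 were not among the tested genes. The part of such cells in the result was not tested.

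Of 9 measured GABA and glycine identity genes, 7 were lower and 2 higher, with a median of -0.18, and the median was above 0 in 1 of 7 animals. Over all named genes, 52.9% were above 0, and of the general neuron markers described below 21 of 28 were lower. Calb2, the calcium buffer calretinin of many interneurons, gave 395 to 573 in regenerating and 452 to 1242 in non-regenerating neurons. It differed by -0.42 (SE 0.14), from -1.17 in MM17, whose non-regenerating array stood apart, to -0.00 in MM13 (534 against 536). Slc32a1, the vesicular transporter of GABA and glycine, gave 225 to 606 against 342 to 653 and differed by -0.40 (SE 0.15), below 0 in 6 of 7. Both had an unadjusted p under 0.05. Gad1, which makes GABA, differed by -0.38 (SE 0.19), with -1.25 in MM17, and Gphn, the scaffold of inhibitory synapses, by 0.18 (SE 0.12).

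The 6 measured genes of glutamate identity had a median of -0.08, and 0 had an unadjusted p under 0.05 in either direction. Slc17a6, the vesicular glutamate transporter of spinal neurons, differed by -0.14 (SE 0.16), Glul, the glutamine synthetase of astrocytes, by -0.25 (SE 0.18) and the transcription factor Ebf1 by -0.13 (SE 0.15). Of 28 measured neuropeptides and granins besides CGRP and urotensin, 1 was higher and 2 lower at an unadjusted p under 0.05, with a median of 0.02. Penk, the enkephalin precursor of dorsal horn neurons, gave 688 to 1477 against 943 to 2035 and differed by -0.32 (SE 0.11), below 0 in all 7 animals. Nmu, neuromedin U, differed by -0.55 (SE 0.21), Nppc by -0.38 (SE 0.18) and Nucb2, the nesfatin precursor, by 0.36 (SE 0.15). The granin Scg2 differed by -0.34 (SE 0.18).

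Receptors for monoamines and peptides held 4 genes lower and 0 higher at an unadjusted p under 0.05, of 33 measured, with a median of -0.06. Npy5r, a neuropeptide Y receptor, gave 59.0 to 434 in regenerating and 99.3 to 529 in non-regenerating neurons and differed by -0.63 (SE 0.17), below 0 in 6 of 7 animals. Cckbr, a cholecystokinin receptor, differed by -0.45 (SE 0.15), below 0 in all 7, Htr2c, a serotonin receptor, by -0.42 (SE 0.14) and Adra1b, an adrenergic receptor, by -0.42 (SE 0.17). The summed signal of the list was lower in the regenerating sample of 7 of 7 animals, at 9202 to 11903 against 9909 to 12570. The ranges of the sums overlapped widely.

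Of 23 measured glutamate receptor genes, 2 were higher and 3 lower at an unadjusted p under 0.05. Grm6, a metabotropic receptor, gave 4.40 to 77.3 against 42.1 to 116 and differed by -0.88 (SE 0.27), and the AMPA subunit Gria4 by -0.39 (SE 0.15). Cacng2, an AMPA receptor partner, differed by 0.51 (SE 0.20) and the postsynaptic scaffold Dlg4 by 0.31 (SE 0.13). Among GABA, glycine and acetylcholine receptors, of which 18 were measured, Gabra2 differed by 0.67 (SE 0.22) and Glra2 by -0.37 (SE 0.14). Kcnj14, an inward rectifier potassium channel known from motor neurons, gave 104 to 1203 against 109 to 417 and differed by 0.81 (SE 0.19), above 0 in 6 of 7 animals and 1.74 in MM14. It was among 2 of 36 measured potassium and HCN channel genes that were higher at an unadjusted p under 0.05, the other being Kcnmb4 at 0.40 (SE 0.17), and 0 were lower, Kcna5 standing at -0.33 (SE 0.17). Among 24 sodium and calcium channel genes, 3 were higher and 0 lower, Cacna2d1, which is induced in injured sensory neurons, at 0.44 (SE 0.16), Cacna2d3 at 0.30 (SE 0.13) and Cacng2, named above.

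Of the genes known to be induced when axons regrow, 0 passed the adjusted test in limma. Of 53 in the list, 39 were measured, 25 were higher and 14 lower, and 9 (23.1%) were higher and 0 lower at an unadjusted p under 0.05, against 4.93% and 2.5% of all named genes. The counts of every list at this p are to be read against these 2 shares. The median was 0.04, and the animals ranged from -0.07 in MM17 to 0.41 in MM14. Anxa2, an annexin, gave 686 to 1974 in regenerating and 201 to 912 in non-regenerating neurons and differed by 0.82 (SE 0.19, adjusted p = 0.52 by limma), above 0 in 6 of 7 animals. Sprr1a, a small proline-rich protein of regrowing sensory neurons, differed by 0.60 (SE 0.21), with 2.15 in MOON265. Jun differed by 0.40 (SE 0.13) and Stat3 by 0.43 (SE 0.15), each above 0 in 6 of 7 animals, and Hspb1 by 0.58 (SE 0.25), with 2.54 in MM14.

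Other classic members lay around 0. Gap43, the growth cone protein, gave 2212 to 5451 against 1706 to 8842 and differed by -0.21 (SE 0.18). Atf3 differed by 0.20 (SE 0.21), from -0.76 in MM13 to 1.59 in MOON265, and the neuropeptide Gal by 0.11 (SE 0.14). Further probe sets of the same genes gave other values: Jun -0.18 and 0.11 on its dimmer ones, and Stat3 0.03. The transcription factors that mark early responses held 5 of 28 genes higher and 0 lower at an unadjusted p under 0.05. These included Crem, a cyclic AMP responsive regulator, at 0.58 (SE 0.18), Egr2 at 0.88 (SE 0.27), Klf7, which promotes axon growth, at 0.42 (SE 0.15), and Klf10 at 0.79 (SE 0.31). Crem and Klf7 were also counted among the higher genes of the list of genes induced when axons regrow, so the counts share members.

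Among signals and receptors for growth, Fgf1, an acidic fibroblast growth factor that motor neurons make, gave 1099 to 2659 in regenerating and 634 to 1730 in non-regenerating neurons and differed by 0.58 (SE 0.12), in all 7 animals. It was 1 of 46 measured neurotrophic genes that was higher at an unadjusted p under 0.05. Flt1, a receptor for vascular endothelial growth factor, was the 1 that was lower, at -0.43 (SE 0.16), below 0 in all 7, and Igfbp2 stood at 0.43 (SE 0.20). Of 22 measured cytokine signalling genes, 1 was higher, Stat3, and Tyk2 stood at 0.42 (SE 0.21). Bmp6 differed by 0.37 (SE 0.16) and its receptor Bmpr2 by -0.46 (SE 0.22), and among growth kinases Prkcz by 0.49 (SE 0.17) and Rictor by -0.22 (SE 0.12).

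Cytoskeleton and guidance genes held few members with a low p. Of 44 measured growth cone and cytoskeleton regulators, 2 were higher and 1 lower at an unadjusted p under 0.05: Cotl1, which binds actin, at 0.52 (SE 0.13), Tmod2, which caps actin filaments, at 0.31 (SE 0.12), and Stmn1, which binds tubulin, at -0.38 (SE 0.18). Limk1 stood at -0.31 (SE 0.16), Tubb2b at -0.33 (SE 0.20), and the dynein light chains Dynlt1 and Dynll2 at 0.42 (SE 0.19) and -0.34 (SE 0.19). Of 41 measured guidance genes, 1 was higher and 3 lower. The ephrin receptor Epha3 differed by -0.69 (SE 0.21), the netrin receptor Unc5c by -0.49 (SE 0.16), the semaphorin Sema3d by -0.39 (SE 0.18) and the phosphatase receptor Ptprf by 0.28 (SE 0.12), in all 7 animals. Among adhesion and matrix genes, Itgav stood at -0.44 (SE 0.19), Thbs2 at 0.40 (SE 0.17) and Col1a1 at 0.33 (SE 0.16). Of 43 measured synaptic vesicle genes, 2 were higher, Rab3b and Sncg, and 1 lower, Syt11, and Rims1 stood at -0.35 (SE 0.17).

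Ribosomal, proteasome and respiratory chain genes were higher in some animals and not in others. Of 40 measured ribosomal protein genes, 32 were higher, 5 of them at an unadjusted p under 0.05 and 1 lower gene at that level, with a median of 0.16. By animal the median was -0.13 in MM11, 0.30 in MM13, 0.19 in MM14, 0.37 in MM16, 0.65 in MM17, -0.14 in MOON265 and -0.08 in MOON266. The medians of 56 proteasome and ubiquitin genes and of 64 respiratory chain genes, both 0.13 over all animals, were also above 0 in MM13, MM14, MM16 and MM17 and below 0 in MM11 and MOON266. With the 3 prime to 5 prime ratio as a covariate, the 3 medians were -0.03, 0.02 and -0.06.

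Rpsa, a ribosomal protein, differed by 0.79 (SE 0.28), with 2.94 in MM17 and at most 1.19 in the others, Rplp0 by 0.43 (SE 0.17) and Rpl12 by 0.34 (SE 0.13). Of the proteasome, Psmd1 differed by 0.48 (SE 0.19), Psmb7 by 0.51 (SE 0.22) and Uchl5 by 0.39 (SE 0.15). Atp5f1d, a subunit of the ATP synthase, gave 262 to 1313 against 204 to 678 and differed by 0.55 (SE 0.15), in all 7 animals. Atp5pd of the same enzyme differed by 0.35 (SE 0.13), Sdhb by 0.43 (SE 0.18) and Ndufb7 by 0.37 (SE 0.15). Of these 10 genes, MM17, whose non-regenerating array stood apart, gave the highest difference for 5 and MM14 for the other 5. Without MM17, the medians of the 3 lists were 0.07, 0.10 and 0.06.

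Stress and metabolic genes gave scattered values. Cat, catalase, gave 464 to 1309 in regenerating and 542 to 3665 in non-regenerating neurons and differed by -0.73 (SE 0.18), below 0 in 6 of 7 animals. Of the other antioxidant genes, Gpx1 differed by 0.51 (SE 0.17), in all 7 animals, Hmox2 by 0.42 (SE 0.19) and Prdx2 by 0.29 (SE 0.13). That list had 4 genes higher and 1 lower of 33 at an unadjusted p under 0.05. Asns, asparagine synthetase, gave 292 to 953 against 272 to 622 and differed by 0.55 (SE 0.13), above 0 in 6 of 7, Phgdh, the first enzyme of serine synthesis, by 0.67 (SE 0.26) and Xbp1 by 0.39 (SE 0.16). The chaperone partner Bag3 differed by 0.63 (SE 0.15) and the small heat shock protein Hspb8 by 0.45 (SE 0.22). Of the death genes, Bid differed by 0.42 (SE 0.14) and Casp2 by -0.41 (SE 0.14). In MM17, whose non-regenerating array stood apart, Cat was -1.78, Gpx1 1.43, Hmox2 1.51 and Xbp1 1.46, the widest difference of each. Prdx2, Asns, Phgdh, Bag3 and Casp2 were widest in MM14, and Hspb8 and Bid in MOON265.

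In energy and lipid metabolism, Ldha differed by 0.47 (SE 0.16), Aldoa by 0.27 (SE 0.12), Apoe by 0.42 (SE 0.16), Dhcr7 by 0.37 (SE 0.16) and Fasn by 0.30 (SE 0.13). Of 54 lysosome and autophagy genes, 4 were higher and 2 lower at an unadjusted p under 0.05. Atg3 stood at 0.40 (SE 0.14), Ctsa at 0.48 (SE 0.19), the proton pump subunit Atp6v0d1 at 0.59 (SE 0.24) and its accessory protein Atp6ap1 at -0.35 (SE 0.12). Of 42 cell cycle genes, 1 was higher and 2 lower. Pbk, a mitotic kinase, differed by -0.92 (SE 0.22) at signals of 2.80 to 158, Ccne2 by -0.48 (SE 0.18) and Cdk4 by 0.40 (SE 0.17). MM17, whose non-regenerating array stood apart, gave the widest difference for Ldha, Apoe, Fasn, Atg3, Ctsa, Atp6v0d1 and Cdk4. It was 2.17 for Atp6v0d1 and 1.33 for both Ldha and Ctsa. The other genes of this paragraph were widest in MM13, MM14 or MM16.

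Markers of other cells were measured in both groups. Of 37 MHC, interferon and complement genes, 26 were higher, 5 of them at an unadjusted p under 0.05 and 0 lower, and the summed signal was higher in the regenerating sample of 7 of 7 animals, at 9830 to 14201 against 8797 to 12860. C1s, of the complement cascade, gave 559 to 1172 against 441 to 721 and differed by 0.47 (SE 0.16), C1qc by 0.34 (SE 0.14), both in all 7 animals, and Cd74 by 0.45 (SE 0.17). Of 23 microglia and macrophage genes, 4 were higher and 1 lower, with summed signals of 13652 to 24460 against 12940 to 21816, higher in 3 of 7 animals. Lgals3 differed by 0.40 (SE 0.15), Fcgr2b by 0.31 (SE 0.13), and Aif1 by 0.39 (SE 0.17) on its brighter and by -0.35 (SE 0.24) on its dimmer probe set. The part of these cells in the neuronal differences was not tested.

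Of 21 astrocyte genes, 1 was higher at an unadjusted p under 0.05, Clu at 0.52 (SE 0.19), with summed signals of 25274 to 39147 against 25146 to 41935. Clu was 1.91 in MM17, whose non-regenerating array stood apart, and at most 0.78 in the other animals. Gfap differed by -0.03 (SE 0.15), Gjb6 by -0.33 (SE 0.16) and Slc1a2 by -0.36 (SE 0.18). Of 23 oligodendrocyte genes, 1 was lower, Car2 at -0.29 (SE 0.13), and Mbp differed by -0.15, 0.33 and 0.09 on its 3 probe sets. Summed signals were 20475 to 34028 against 23002 to 36088. Of 19 vessel genes, 1 was higher and 1 lower at an unadjusted p under 0.05, Vwf at 0.60 (SE 0.25) and Flt1, named above. Vwf was above 0 in 5 of 7 animals and ranged from -0.41 in MOON265 to 2.09 in MM17. Of 16 fibroblast and meningeal genes, 14 had a mean above 0, and 2 were higher and 0 lower at that p, Ptgds at 0.54 (SE 0.18) and Fbln1 at 0.39 (SE 0.17). Of 10 Schwann cell genes, 1 was higher and 0 lower, Egr2, given above. Pmp22 stood at 0.28 (SE 0.14) and Alas2 of red cells by -0.37 (SE 0.19).

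Of 28 general neuron markers, 21 were lower and 7 higher, 0 of them at an unadjusted p under 0.05 in limma, with a median of -0.13. By animal the median ranged from -0.55 in MM17 to 0.38 in MM16, and the summed signal was higher in the regenerating sample of 3 of 7 animals. Snap25 differed by -0.26 (SE 0.19), Uchl1 by 0.34 (SE 0.17), Rbfox3 by 0.16 and 0.04 on its 2 probe sets, and Nefl by -0.04 and 0.04.

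**Figure D3:**
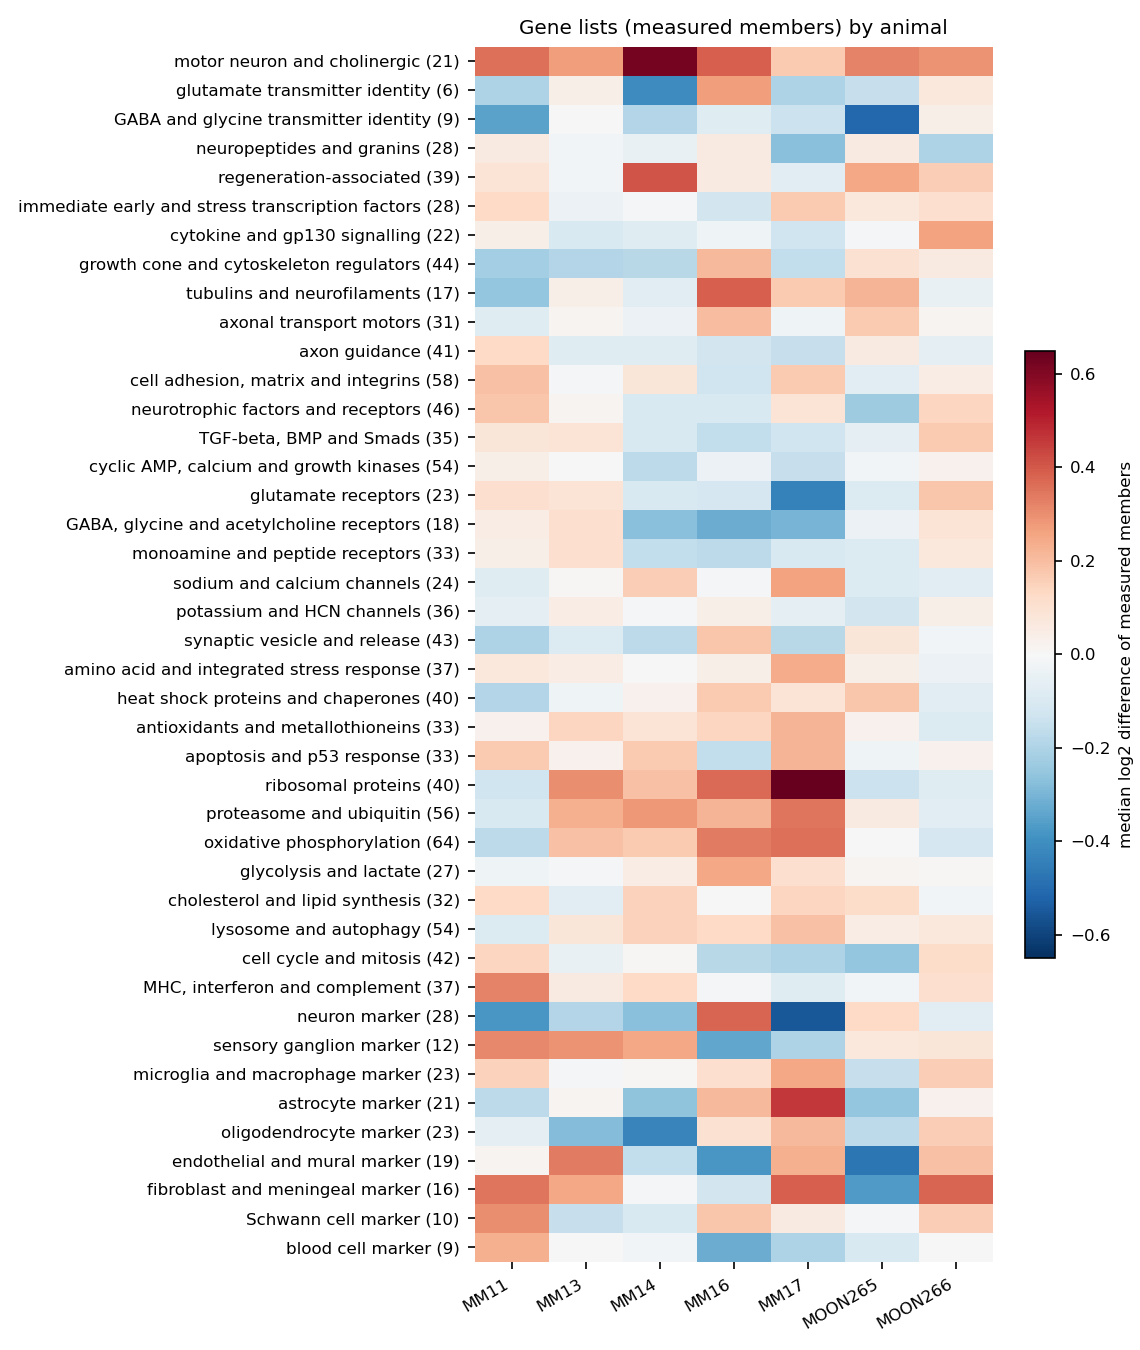
Median log2 difference (regenerating minus non-regenerating; red higher, blue lower in regenerating neurons) of the measured members of each gene list, whose number stands in brackets, in each of the 7 animals. The motor neuron and cholinergic list is above 0 in all 7 columns, while the ribosomal protein, proteasome and oxidative phosphorylation lists are above 0 in MM13, MM14, MM16 and MM17 and below 0 in MM11 and MOON266.

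Of genes with 1 symbol, the 15 higher and the 15 lower with the smallest p and the same sign in all 7 animals were taken as a group. The higher ones comprised Calca, Uts2, Calcb, Prph, Chat, Slc10a4, Fgf1, Bag3 and Cotl1, given above, and 6 more. Ahnak2, a large scaffold protein, gave 824 to 2961 against 507 to 1292 and differed by 0.73 (SE 0.17). Sh3bgr gave 374 to 846 against 245 to 441 and differed by 0.69 (SE 0.14, adjusted p = 0.37 by limma). Polr3g, a subunit of RNA polymerase III, differed by 0.71 (SE 0.16), Snrpd2, of the spliceosome, by 0.70 (SE 0.17), Nabp1, which binds single-stranded DNA, by 0.78 (SE 0.19) and Nell2, a secreted neuronal protein, by 0.60 (SE 0.15).

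The lower ones comprised Pbk, given above, and 14 more. Stambpl1, a deubiquitinase, gave 548 to 675 in regenerating and 723 to 1026 in non-regenerating neurons, so its groups did not overlap, and it differed by -0.47 (SE 0.12). Ptgs2, the inducible cyclooxygenase, gave 11.3 to 42.2 against 30.7 to 69.5 and differed by -0.62 (SE 0.17). Pax8, a transcription factor of inhibitory spinal interneurons, gave 73.5 to 174 against 106 to 312 and differed by -0.48 (SE 0.15), and Lmo3, of the LIM-only family, by -0.52 (SE 0.14). Twsg1, which binds bone morphogenetic proteins, differed by -0.55 (SE 0.14), Stra6, the receptor of the retinol carrier, by -0.65 (SE 0.18), Egln3, an oxygen-sensing hydroxylase, by -0.42 (SE 0.12) and Kcnj11, a subunit of potassium channels gated by ATP, by -0.61 (SE 0.19). Syt11, Lrrc4, Luzp2, rnf141, Dancr and Orc4 lay between -0.56 and -0.40.

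**Figure D4:**
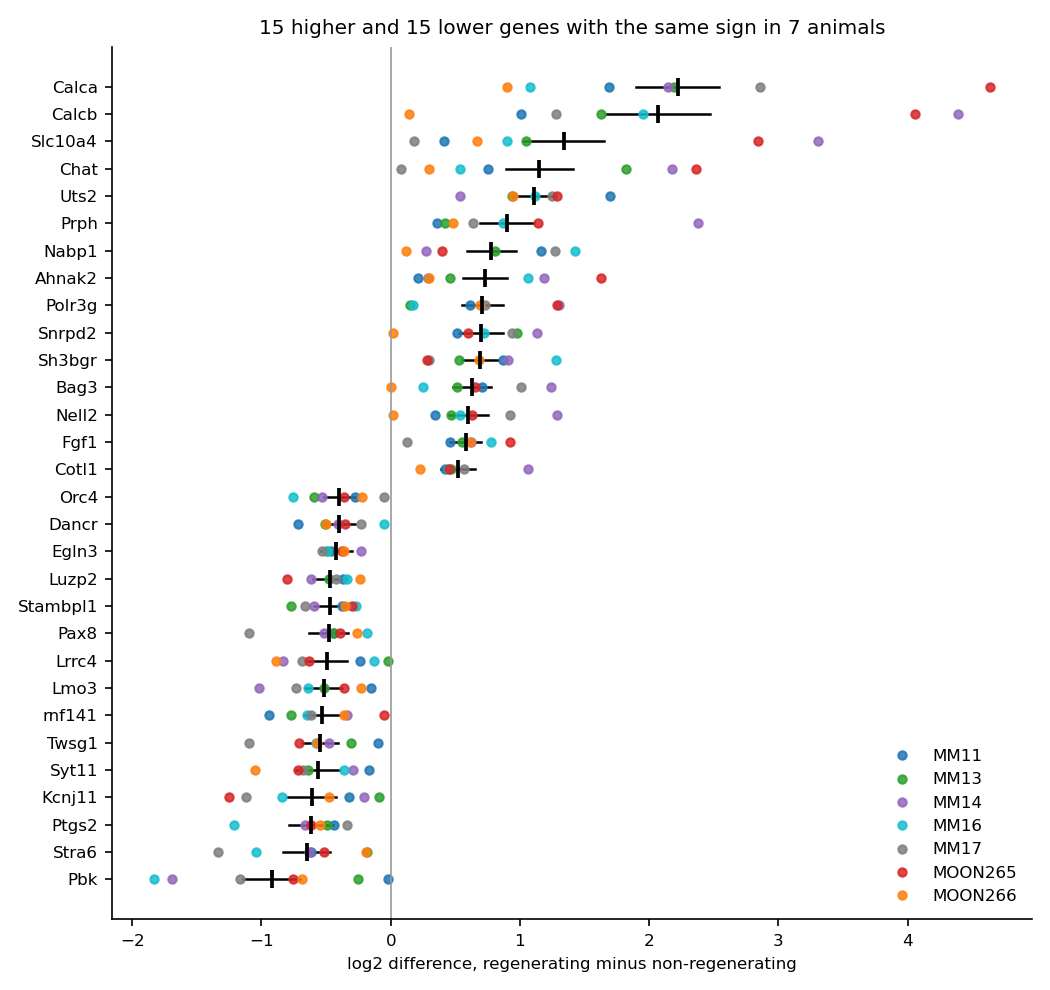
Log2 difference (regenerating minus non-regenerating) in each of the 7 animals (points) for the 15 higher and 15 lower genes with the smallest p among those with the same sign in all animals, with the mean (black bar) and 1 SE (line). Calca and Uts2 are the 2 that passed the adjusted test, and the points of Uts2 span 0.54 to 1.70 against 0.90 to 4.64 for Calca.

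Over all tested probe sets, these genes included, the differences of single animals correlated weakly. Across the tested probe sets, the differences of each 2 animals correlated with r between -0.17 and 0.25 over the 21 pairs of animals, with a median of 0.03, and 13 of the 21 were above 0. The values are across probe sets, which are not independent replicates. How much noise of single arrays lowered them was not tested. The highest, 0.25, was between MM13 and MM14 and the lowest, -0.17, between MM11 and MM16. In MM17, 16.7% of probe sets differed more than 2-fold between the 2 samples, against 2.19% to 7.07% in the other animals.

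The difference between regenerating and non-regenerating neurons was also compared between the 5 MM and the 2 MOON animals. In limma, 1 of 18625 probe sets (0.00537%) passed for this interaction, 1395685_at, which has no gene name here. Its signals in regenerating and non-regenerating neurons were 7.20 and 28.1 in MM11, 22.9 and 56.4 in MM13, 14.8 and 88.2 in MM14, 43.5 and 96.2 in MM16, and 37.2 and 211 in MM17. In MOON265 they were 134 and 19.7 and in MOON266 146 and 25.2. The regenerating sample was thus lower in 5 of 5 MM animals and higher in 2 of 2 MOON animals. The mean differences were -1.32 and 2.03, and the interaction was 3.34 (SE 0.42, adjusted p = 0.018 by limma). It did not pass without MM14, without MOON265 or without MOON266, where 0 probe sets passed and 750, 541 and 725 had an unadjusted p under 0.05.

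Calca differed by 1.99 in MM and 2.77 in MOON animals and Uts2 by 1.11 and 1.12, with interactions of 0.77 (SE 0.69) and 0.01 (SE 0.39), which did not pass. Other genes also had different means in the prefixes without passing, each with an adjusted p of 0.91 by limma. The means in MM and MOON animals were 0.24 and 1.52 for Sprr1a, -0.14 and 1.03 for Atf3, and 0.23 and 0.90 for Klf7. They were 1.08 and -0.34 for Phgdh, 1.14 and -0.09 for Rpsa, -0.38 and -1.47 for Epha3 and -0.57 and -1.66 for Grm6. Sprr1a and Atf3 were highest in MOON265, at 2.15 and 1.59.

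**Figure D5:**
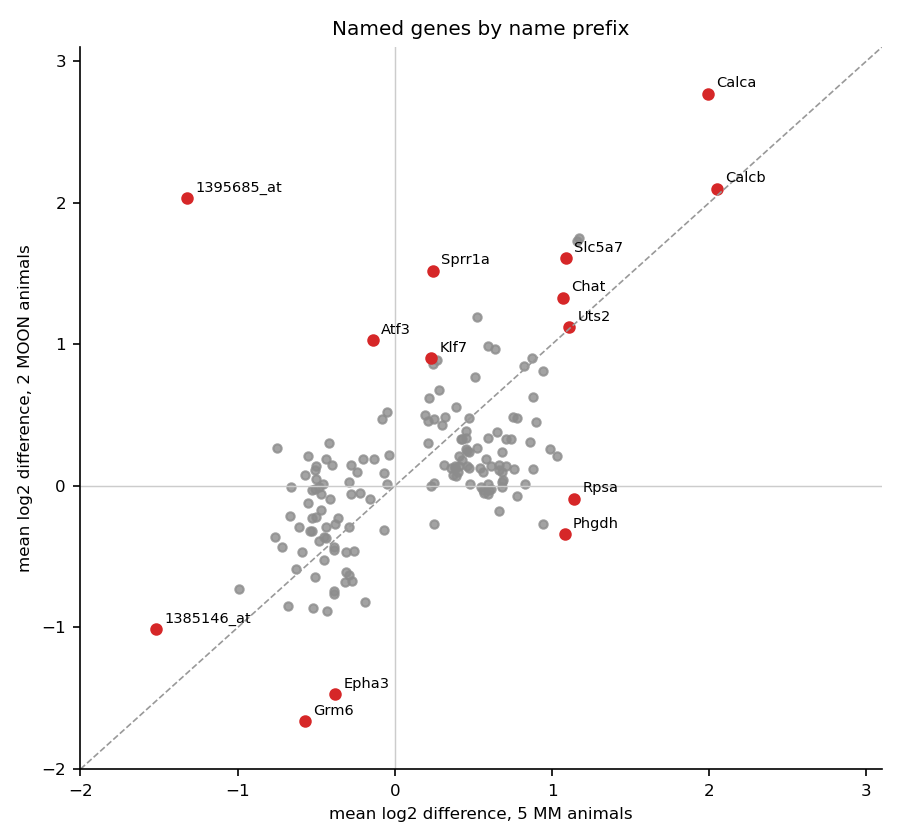
Mean log2 difference (regenerating minus non-regenerating) in the 5 MM animals (x axis) and in the 2 MOON animals (y axis) for most probe sets named in the text. Some are labelled in red, and the line of equality is dashed. Calca, Calcb, Uts2, Chat and Slc5a7 lie near the line or above it, and 1395685_at lies at -1.32 and 2.03, with opposite signs.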

How the data were processed

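The 14 arrays used measured gene expression in 7 regenerating and 7 non-regenerating samples. The authors deposited 1 linear signal intensity for each probe set and array, made with GCOS per the submitters' processing notes (version and settings not given in the sources used here). In the table the mean was 200.0 to 200.1 on every array without the lowest and highest 2% of signals, which is a scaling of whole arrays, and the values were used as deposited. An RNA amplification of 3 rounds, per the labels' protocols, favours 3 prime ends. Symbols came from GEO's platform annotation of the 31099 probe sets: 20826 had 1 symbol, 436 several, 9780 none and 57 were controls. Of those with 1 symbol, 20758 matched a RefSeq gene, with 0 changed.

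Signals were taken as log2 after adding an offset of 16. Controls and the 12417 dimmest probe sets (a mean over all 17 arrays under the 40th percentile) were dropped, and the remaining 18625 were tested with limma 3.58.1 (lmFit, eBayes with trend) in R 4.3.3, with the animal as a block and Benjamini-Hochberg adjusted p under 0.05. The animal names in the labels pair the samples. Deviations from group means correlated within animals with r = 0.34 to 0.71, and 0.13 to 0.55 after the prefix means were removed. No correlation between animals was set beside these values. After that removal both MOON animals have the same r by construction. The interaction of group and prefix was fitted likewise. For 42 gene lists, 1 probe set per gene, the one with the highest mean, was counted and not tested as a set. Named were probe sets past the adjusted p, the 15 higher and 15 lower genes with the smallest p and 1 sign in 7 animals, up to 4 members of each list by p, 19 injury, neuron and glia genes with their other probe sets, and all measured motor neuron genes. A few other list members were named after their values were seen. The members, lists and rules were chosen with earlier results of these data known.

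The fits were repeated with other normalizations, offsets and filters, without the trend, with array weights, without or with a random block, with 3 prime bias as a covariate, within each prefix and without each animal. The fit was tested on simulated data. Python 3.11.15, numpy 2.4.6, pandas 2.3.3 and matplotlib 3.10.9 made the tables and figures. The number of arrays limits the precision.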

Additional observations from a re-analysis of the deposited data

Results flagged for a closer look

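A value was looked at again where 1 of the 7 animals lay far from the other 6 by Dixon's criterion at 95%. Of 171 sets of values looked at, 16 met it, and chance alone gives about 1 in 20. In MM14, the difference was 2.38 for Prph (others 0.36 to 1.14), 1.06 for Cotl1 (0.23 to 0.57), 1.77 for Sncg (0.27 to 0.71) and 2.54 for Hspb1 (-0.31 to 0.79). In MM17, whose non-regenerating array stood apart, it was 1.85 for Tyk2 (-0.09 to 0.71), 0.92 for Dlg4 (0.11 to 0.44), 1.46 for Xbp1 (-0.07 to 0.52), 2.94 for Rpsa (-0.13 to 1.19), -1.10 for Pax8 (-0.52 to -0.18), -1.22 for Kcna5 (-0.39 to 0.06) and -1.66 for Cldn1 (-0.29 to 0.22). Ptgs2 was -1.21 in MM16 (-0.66 to -0.34), Dynlt1 1.63 in MM13 (-0.20 to 0.56) and Ptprf 0.68 in MOON265 (0.09 to 0.33).

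The non-regenerating array of MM17 itself held 12.4% of its signal in its 100 brightest probe sets, against 3.85% to 7.24% on the other 6 non-regenerating arrays, and its median correlation with the other arrays was 0.834, against 0.917 to 0.944. The difference of 1395685_at was opposite in the MM and the MOON animals, by 3.34 in the test of the interaction (adjusted p = 0.018 by limma).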

How the results depend on the processing

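In limma, the 3 calls between regenerating and non-regenerating neurons became 0 with quantile normalization, an offset of 1, no filter, or the 3 prime to 5 prime ratio as a covariate, and 1 with the animal as a random block. Without the replicate block, the unpaired fit gave 0 calls, with 217 probe sets at an unadjusted p under 0.05. The MM animals alone gave 1 call, the MOON animals alone 4, all higher, and leaving out each animal in turn gave 0 to 3. Calca was called in 9 of 21 alternatives (difference 1.81 to 2.77, adjusted p 0.0051 to 1), Uts2 in 4 of 20 (0.68 to 1.48, adjusted p 0.021 to 1) and 1385146_at in 8 of 21 (-1.57 to -1.01, adjusted p 0.0093 to 1), always with the sign given. The 1 call between MOON and MM animals, 1395685_at, held in 10 of 16 alternatives (2.0 to 4.44, adjusted p 0.0023 to 1). It became 0 with quantile normalization, no filter, a filter at the 70th percentile or the covariate, and leaving out each animal gave 0 to 1. Slc5a7 passed without MM16, at 1.46 (adjusted p = 0.031 by limma). Differences that turned their sign belonged to probe sets that had not passed between regenerating and non-regenerating neurons. Of these, 1395685_at had passed for the interaction. Where a gene has several probe sets, they are numbered in the order given above. In the MOON animals alone the turned differences were Glul 0.15, Slc17a6 0.10, Gad1 0.08, Limk1 0.14, Tubb2b 0.21, Dynlt1 -0.03, Dynll2 0.05, Bmpr2 0.27, Phgdh -0.34, Xbp1 -0.03, Rpsa -0.09, Uchl5 -0.01, Sdhb -0.02, Apoe -0.18, Ctsa -0.01, Atp6v0d1 -0.27, Cdk4 -0.06, Gjb6 0.01, Ptgds -0.07, Gap43 0.30, Gfap 0.01, Aif1 -0.05 and 0.40 (dimmer probe set), Mbp 0.15 (its first) and -0.03 (its second), Rbfox3 -0.00 and -0.16 (dimmer), Snap25 0.19, Nefl 0.19 (its first), the dimmer Stat3 -0.46, Isl1 0.09, Esrrb 0.19, Cldn1 0.11, Sv2c 0.03, Lix1 -0.27 and 1395685_at 2.03. In the MM animals alone they were Atf3 -0.14, Gal -0.05, Ret -0.04 and Sv2a -0.08. With quantile normalization they were Gap43 0.04, Gfap 0.10, Mbp 0.06, Snap25 0.02, Nefl 0.18 (its first) and Isl1 0.02, and with arrays centred on their median Isl1 0.01. With array weights they were Nefl 0.02 (its first) and -0.04 (its second), the dimmer Stat3 -0.01, Isl1 0.06, Ret -0.00 and Esrrb 0.00. With the covariate they were Bmpr2 0.06, 1395685_at 0.58, the dimmer Stat3 -0.15, Aif1 0.13 and Rbfox3 -0.08, Nefl -0.21 (its second), Isl1 0.41, Ret -0.08, Esrrb 0.11 and Sv2c 0.16. Leaving out each animal gave Slc17a6 -0.25 to 0.00, Atf3 -0.04 to 0.36, Gfap -0.13 to 0.06, Nefl -0.18 to 0.04 (its first) and -0.09 to 0.15 (its second), the dimmer Stat3 -0.14 to 0.18, the dimmer Rbfox3 -0.09 to 0.13, Isl1 -0.18 to 0.10, Ret -0.05 to 0.14, Esrrb -0.17 to 0.04, Sv2a -0.05 to 0.16 and Lix1 -0.02 to 0.19. The causes were not tested. With 2 animals left by the MOON fit, its values rest on few samples. Signals near or below the offset of 16 limit what many of the named probe sets can show. Among them are Uts2, Calcb, Snrpd2, Pbk, Klf10, Epha3, Grm6, Vwf, Tyk2, Isl1, Gabra2, Kcnj11, Rims1 and 1395685_at.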
